A study of Mus musculus with 37 samples.

Results

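Of the 19938 genes measured, 9 genes of central myelin were taken as a group: Mbp, Mobp, Mog, Mag, Cnp, Cldn11, Mal, Opalin and Ugt8a. They were chosen by symbol, and the probe set with that single symbol and the highest mean stood for each gene. All 9 were measured, each by 1 probe set. The 37 Affymetrix arrays hold total RNA from 31 region samples of 8 mice, male F1 hybrids of C57BL/6N and 129Sv, whose age was not given in the sources used here. The 2 df/+ mice lacked 1 copy of the segment of chromosome 7 that corresponds to human 16p11.2, the 3 dp/+ mice carried an extra copy of it, and the 3 +/+ mice were wild type. Brain stem, cerebellum, cortex and olfactory bulb were taken from each mouse, except that no cortex of dp/+ mouse 3 was analysed here. The study asked whether expression in the brain follows the dosage of this segment.

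Myelin is the membrane that oligodendrocytes wrap around axons in the central nervous system. Its layers are held together by abundant structural proteins and by galactolipids, and it speeds the conduction of nerve impulses. White matter tracts are rich in it, and the genes for its components are switched on late in the maturation of oligodendrocytes, under the transcription factors Sox10 and Myrf.

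Values are log2 RMA summaries, so a difference of 1 is a doubling on the scale of the array. The mouse was the replicate, and the 6 samples with 2 arrays were averaged. Between 2 arrays of 1 sample the 9 genes differed by at most 0.157 in 5 of these samples. In the cerebellum of dp/+ mouse 1 Opalin differed by 0.504 and the other 8 genes by at most 0.262. The median SD of the 9 genes between mice of a group lay between 0.0409 in df/+ bulbs and 0.179 in df/+ cortex. The copy number of each mouse was checked with the mean of 4 genes of the rearranged segment, Taok2, Ppp4c, Kctd13 and Cdipt, picked with their values known. It was -0.74 and -0.865 in df/+ mice and 0.362 to 0.387 in dp/+ mice, relative to the +/+ mean, and between -0.0364 and 0.0233 in +/+ mice. In +/+ mice Slc17a6, the glutamate transporter of subcortical neurons, was 2.45 higher in the brain stem than in the bulb (limma, adjusted p = 2.37e-11). Frzb, listed as a marker of the glia that ensheath olfactory axons, was lower in the brain stem than in the bulb (-3.07, adjusted p = 6.25e-10). Both were named for a small p between regions in these same +/+ mice, so they are no independent check of the regions.

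The promoters of 3 members are shown: Mobp and Mal, which were lower in dp/+ bulbs, and Opalin, which had the largest difference between regions. Each sequence is the 250 bases before the gene start, 5′ to 3′ on the strand of the gene, from RefSeq on build GRCm38.p6. Capitals mark ACAAAG or ACAATG on either strand, the core letters bound by Sox factors such as Sox10. Mobp lies at chr9:120149492-120149741 (plus strand), Mal at chr2:127656696-127656945 (minus strand) and Opalin at chr19:41077114-41077363 (minus strand).
Mobp: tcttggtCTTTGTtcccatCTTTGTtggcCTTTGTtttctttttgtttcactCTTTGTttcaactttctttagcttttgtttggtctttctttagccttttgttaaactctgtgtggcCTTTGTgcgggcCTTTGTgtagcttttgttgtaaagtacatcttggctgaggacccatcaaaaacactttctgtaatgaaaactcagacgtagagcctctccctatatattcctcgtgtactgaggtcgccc
Mal: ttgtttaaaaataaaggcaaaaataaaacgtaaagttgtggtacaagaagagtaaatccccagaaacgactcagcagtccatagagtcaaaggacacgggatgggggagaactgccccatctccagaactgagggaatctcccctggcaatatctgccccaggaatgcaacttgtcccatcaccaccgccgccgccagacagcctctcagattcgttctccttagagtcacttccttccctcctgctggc
Opalin: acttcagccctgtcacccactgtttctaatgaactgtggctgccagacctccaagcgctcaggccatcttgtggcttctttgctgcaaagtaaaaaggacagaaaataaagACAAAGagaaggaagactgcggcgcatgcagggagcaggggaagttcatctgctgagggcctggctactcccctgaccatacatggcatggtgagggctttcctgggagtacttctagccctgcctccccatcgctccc
The Mobp stretch holds 6 matches, the Opalin stretch 1 and the Mal stretch 0. Of 32851 such windows, 25.2% hold at least 1 match and 1 window (0.00304%), that of Mobp, holds 6 or more. The cutoff of 6 was the count of the Mobp stretch itself, so this share is no test. All 6 matches read CTTTGT. The 8 members with an entry have 10 windows. Of these windows 5 hold a match, from 4 genes (Mag, Mobp, Cnp and Opalin). The letters CTGGNAC, bound by Myrf, were found in 4 of the 10 windows, from 3 genes (Mag, Cnp and Mog), and in 16.1% of all windows. The E-box CANNTG, bound by Olig factors, was found in 5 of the 10 windows, from 4 genes, and in 66.2% of all windows. Both strands were searched for each motif. A match describes the sequence and is not a binding site.

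All 9 genes differed between brain regions in +/+ mice, and each was highest in the brain stem and lowest in the olfactory bulb. In the F test between regions all 9 passed an adjusted p of 0.05, as did 58% of all genes (limma, mouse as a block). Only 21.4% of all genes were highest in the brain stem and 24.1% were lowest in the bulb. The order brain stem, cortex, cerebellum, bulb was shown by 8 of the 9 genes and by 3.98% of all genes. Cnp was the exception, with a higher mean in the cerebellum than in the cortex. In these tissue samples, fewer cells of a type and less RNA per cell cannot be told apart.

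**Figure D1:**
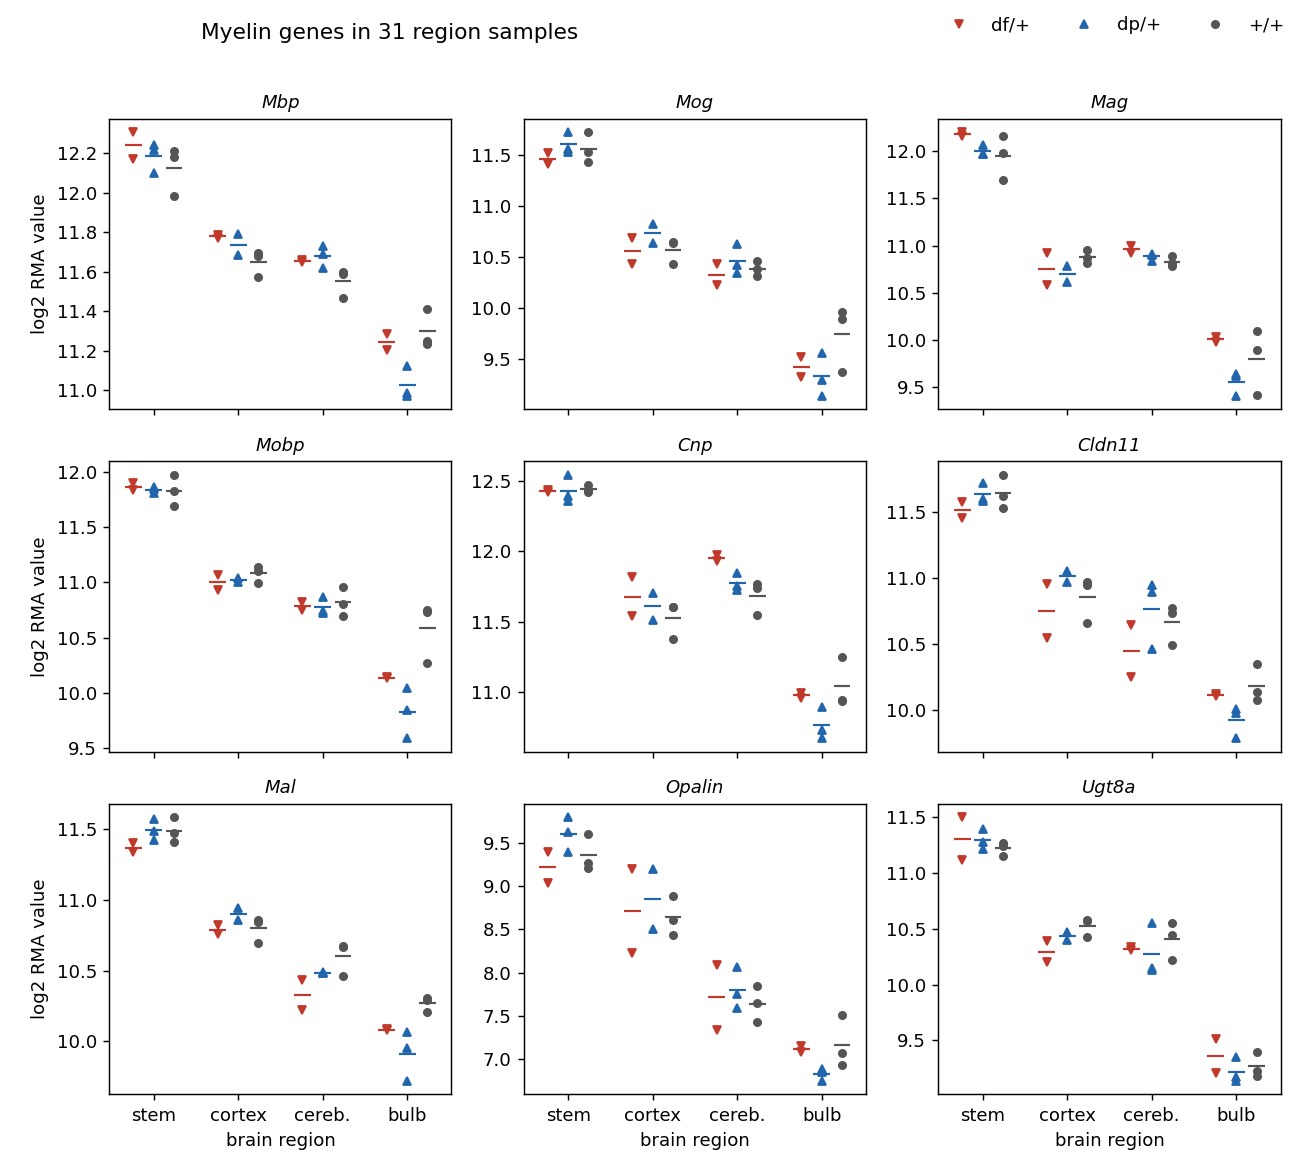
Log2 RMA value (vertical axis, scaled separately for each gene) of the 9 myelin genes by brain region (horizontal axis). Each point is a mouse, and bars are means of df/+ (n = 2), dp/+ (n = 3, cortex 2) and +/+ (n = 3) mice. All 9 genes are highest in the brain stem and lowest in the bulb.

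Among the proteins of compact myelin, Mbp binds the inner faces of the membrane and presses them together. It read 11.99, 12.18 and 12.21 in the 3 +/+ brain stems and 11.23, 11.41 and 11.25 in +/+ bulbs. The groups were apart, and the difference of 0.83 ± 0.09 (SE), or 1.78-fold, was the smallest between brain stem and bulb of the 9 genes. Mobp, a small basic protein on the same cytosolic faces, read 11.69, 11.98 and 11.82 in +/+ brain stems and 10.73, 10.75 and 10.27 in +/+ bulbs. Its brain stem value was 2.37 times that of the bulb. Mal, a membrane protein of lipid rafts that carries cargo to the myelin membrane, read 11.41, 11.59 and 11.47 in +/+ brain stems and 10.29, 10.30 and 10.21 in +/+ bulbs. The fold was 2.33, and the SD of Mal between +/+ mice lay between 0.0529 in the bulb and 0.123 in the cerebellum.

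Opalin, a glycoprotein of the oligodendrocyte surface, was the dimmest member and varied most between regions. It read 9.20, 9.60 and 9.27 in +/+ brain stems, 8.61, 8.88 and 8.44 in +/+ cortex, 7.43, 7.85 and 7.65 in +/+ cerebellum and 7.07, 7.51 and 6.93 in +/+ bulbs. Brain stem exceeded bulb by 2.19 ± 0.09 (SE), or 4.55-fold. Its mean over all samples stood at percentile 52.9 of all genes, whereas the other members stood between percentile 87.1 (Ugt8a) and 97.7 (Cnp). Mog, an immunoglobulin-like protein on the outermost surface of the sheath, read 11.43, 11.72 and 11.53 in +/+ brain stems and 9.96, 9.90 and 9.38 in +/+ bulbs, a 3.52-fold difference. Mag, an adhesion protein on the innermost layer facing the axon, read 11.70, 11.98 and 12.16 in +/+ brain stems and 9.42, 10.10 and 9.89 in +/+ bulbs. Its fold of 4.42 was second to that of Opalin.

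Cnp, a phosphodiesterase that keeps cytosolic channels open in myelin, averaged 12.44 ± 0.02 in +/+ brain stems and 11.05 ± 0.18 in +/+ bulbs (SD, n = 3 each), a 2.63-fold difference. Cldn11, which forms tight junctions between the layers, averaged 11.64 ± 0.13 in +/+ brain stems and 10.19 ± 0.14 in +/+ bulbs (SD, n = 3 each), or 2.74-fold. Ugt8a makes galactosylceramide, the main galactolipid of myelin. It averaged 11.22 ± 0.06 in +/+ brain stems and 9.27 ± 0.12 in +/+ bulbs (SD, n = 3 each), or 3.86-fold. For each of these 3 genes the lowest brain stem lay above the highest bulb, as for all 9 genes and for 19.9% of all genes measured.

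Pairs of regions in +/+ mice differed in how many of the 9 genes separated them. All 9 were higher in the brain stem than in the cerebellum (18.4% of all genes were), than in the cortex (13.9%) and than in the bulb (18.5%). All 9 were also higher in the cortex than in the bulb (19.3%). Between the cerebellum and the bulb, 8 were higher in the cerebellum (21.3%), and Mobp missed the threshold with 0.24 ± 0.10 (SE, adjusted p = 0.079). Cerebellum and cortex stood closest, and only Opalin passed, with a value lower in the cerebellum (-0.999, 95% interval -1.19 to -0.80, adjusted p = 2.21e-07; 17.4% of all genes were lower and 19.8% higher). For the other 8 the estimates lay between -0.26 (Mobp) and 0.16 (Cnp). This last count was 2 to 4 under 4 other settings.

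Regions also differed within each mutant genotype, with the brain stem above the bulb. All 9 genes differed between regions in df/+ mice (43.8% of all genes) and in dp/+ mice (54.5%). Brain stem exceeded bulb for all 9 genes in df/+ mice (15.8% of all genes) and in dp/+ mice (21.7%), as in +/+ mice. The median difference of the 9 was 1.73 in df/+ mice, 2.02 in dp/+ mice and 1.45 in +/+ mice. The medians over all genes were -0.01, -0.02 and -0.01. Mobp differed by 1.73 in df/+ mice (95% interval 1.52 to 1.94), by 2.02 in dp/+ mice (1.79 to 2.24) and by 1.25 in +/+ mice (1.03 to 1.46). Each genotype was fitted separately here, so these intervals do not test the genotypes against each other. Between cerebellum and cortex, Opalin and Mal were lower in the cerebellum in df/+ mice (-0.99 and -0.46; 15.9% of all genes were lower) and in dp/+ mice (-1.05 and -0.44; 17.9%). In +/+ mice the Mal difference was -0.20 (adjusted p = 0.0701).

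**Figure D2:**
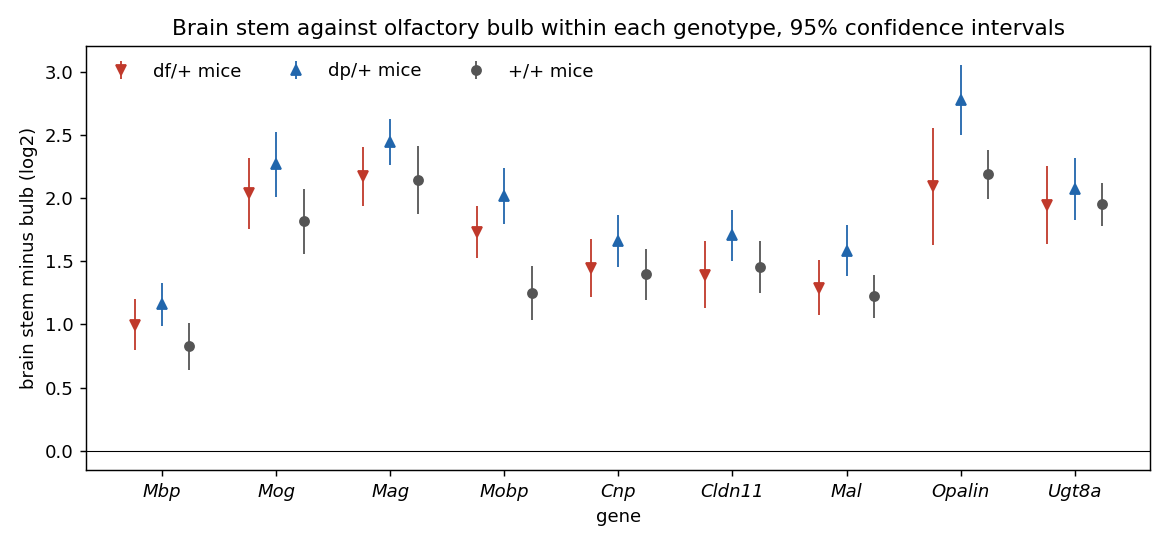
Brain stem minus olfactory bulb (log2, vertical axis) for the 9 myelin genes within df/+, dp/+ and +/+ mice, with 95% confidence intervals from limma. All intervals lie above 0. For Mobp the df/+ interval and the dp/+ interval (1.79 to 2.24) both lie above the +/+ interval (1.03 to 1.46). Each genotype was fitted separately, so the intervals do not test the genotypes against each other.

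Other genes of the oligodendrocyte lineage were read from lists. Over all genes, 18.5% were higher in the brain stem than in the bulb in +/+ mice and 14.1% lower. Of 18 other myelin and oligodendrocyte genes measured, 16 were higher in the brain stem than in the bulb in +/+ mice and 0 lower, with a median difference of 1.59. Among them were Klk6, a secreted protease (2.31), Tspan2, a tetraspanin (2.08), Anln, an actin-binding protein (2.04), and Trf, the iron carrier transferrin (1.63). Of 15 enzymes of myelin lipids 12 were higher, led by Fa2h, which hydroxylates fatty acids of galactolipids (1.86). Of 13 transcription factors of the lineage 11 were higher and 1 lower, among them Myrf (1.70) and Nkx6-2 (1.37). The 10 genes listed for newly formed oligodendrocytes were split, with estimates from -0.73 to 1.60. Enpp6 (1.60), Bcas1 (1.49) and Cnksr3 (0.18) lay above 0 and Tmem163 (-0.64) below. Their mean level ran from 8.825 to 9.099 in +/+ brain stems and from 8.703 to 9.024 in +/+ bulbs, an overlap. Of 9 precursor markers, 2 were higher and 2 lower. Pdgfra, the receptor that drives precursor growth, was higher (0.52), and Lhfpl3 was lower (-0.35).

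Genes of other cells also differed between these regions, and their part in the myelin differences was not tested. All 4 neurofilament genes were higher in the brain stem than in the bulb, with Nefm at 2.25 and Nefl at 1.47. Of 14 genes of the axon side of the sheath, such as Cntnap1 at the paranode (1.54), 9 were higher and 1 lower. Astrocyte genes were higher in 8 of 10 and lower in 1. Of 10 microglial genes 0 were higher and 2 lower, and of 6 genes listed for ensheathing glia 0 were higher and 4 lower. The shares over all genes were 18.5% higher and 14.1% lower.

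Across the brain, no myelin gene had a called relation to copy number. By the slope on log2 copies 0 of 9 passed the threshold (0.11% of all genes), and 1 had an unadjusted p below 0.05 (6.87% of all genes). The slopes lay between -0.11 (Mag, 95% interval -0.22 to -0.01, adjusted p = 0.707) and 0.06 (Cldn11), on a scale where 1 is proportional to copy number. Against +/+ mice, 0 of 9 were called in df/+ mice (0.115% of all genes) and 0 in dp/+ mice (1.86%), with 1 gene of the 9 at an unadjusted p below 0.05 in each (over all genes, 6.75% for df/+ and 23.7% for dp/+). The value nearest to the threshold was that of Mobp in dp/+ mice, -0.23 ± 0.07 (SE, adjusted p = 0.0936). Per mouse, Mobp stood at -0.16, -0.22 and -0.32 in dp/+ mice and at 0.00, 0.13 and -0.13 in +/+ mice. The groups did not overlap, as for 10.9% of all genes. Each value averages the regions of a mouse, among them the bulb, where the dp/+ difference of Mobp was largest (-0.76). No cortex of dp/+ mouse 3 was included, so its bulb weighs more in its value. The mean of the 9 genes stood at 0.01 and -0.08 in df/+ mice, at -0.06, -0.00 and -0.12 in dp/+ mice and at -0.04, 0.10 and -0.06 in +/+ mice, and these groups overlapped. With n of 2 or 3 mice, the 95% intervals of single genes in df/+ and dp/+ mice reached as far as -0.35 and 0.35.

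Within regions, genotype made a called difference in 1 place, the olfactory bulb of dp/+ mice, where Mobp and Mal were lower than in +/+ mice. These were 2 of the 9 genes, against 2.27% of all genes called there, 1.06% lower and 1.21% higher. Mobp read 10.04, 9.84 and 9.59 in dp/+ bulbs, against 10.73, 10.75 and 10.27 in +/+ bulbs. Every dp/+ bulb lay below every +/+ bulb. The difference was -0.76 ± 0.11 (SE, 95% interval -0.98 to -0.53, adjusted p = 0.000808), which puts dp/+ bulbs at 59.1% of +/+. Mal read 10.06, 9.72 and 9.95 in dp/+ bulbs, against 10.29, 10.30 and 10.21 in +/+ bulbs. Here too the groups did not overlap, with a difference of -0.36 ± 0.09 (SE, 95% interval -0.53 to -0.18, adjusted p = 0.0272), or 78.0% of +/+.

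Both calls rest on a spread shared by all regions and genotypes. With the bulb fitted alone, neither passed (adjusted p = 0.0812 for Mobp and 0.18 for Mal, 12 genes called in place of 452), and Mal was also lost without dp/+ mouse 2 (0.182), dp/+ mouse 3 (0.0595), +/+ mouse 1 (0.103) or +/+ mouse 2 (0.0953).

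The other 7 genes also had estimates below 0 in dp/+ bulbs, none past the threshold. The median over all 9 was -0.28, against 0.005 over all genes, of which 48.7% were below 0. Mog read 9.57, 9.14 and 9.29 in dp/+ bulbs, against 9.96, 9.90 and 9.38 in +/+ bulbs, an overlap through +/+ mouse 3 (-0.41 ± 0.13 SE, adjusted p = 0.0903). Mbp read 11.12, 10.98 and 10.97 in dp/+ bulbs, against 11.23, 11.41 and 11.25 in +/+ bulbs. These groups were apart, and the difference was -0.27 ± 0.08 (SE, adjusted p = 0.0597). Cnp stood at -0.28 (adjusted p = 0.116), Opalin at -0.34 (0.384), Cldn11 at -0.26 (0.258), Mag at -0.25 (0.292) and Ugt8a at -0.05 (0.872). For 6 of the 9 genes every dp/+ bulb lay below every +/+ bulb, as for 8.82% of all genes, and before adjustment 6 of the 9 passed 0.05, as did 17.9% of all genes. The members are not independent of each other: dp/+ mouse 1 was the highest of the dp/+ bulbs for all 9 genes.

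**Figure D3:**
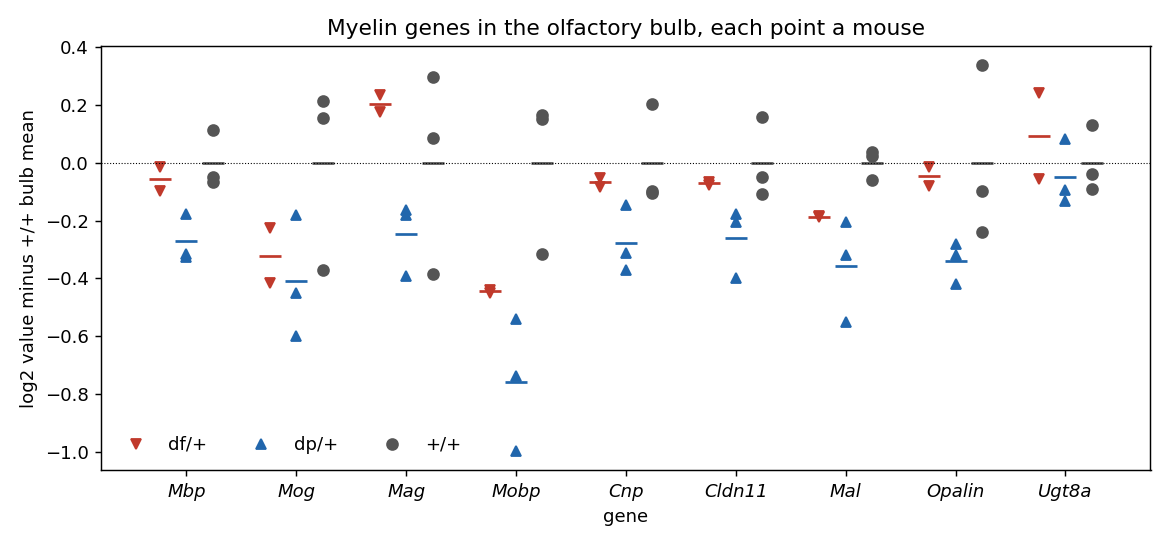
Log2 value in the olfactory bulb minus the +/+ bulb mean (vertical axis) for each myelin gene, 1 point per mouse, with bars at the means of df/+ (n = 2), dp/+ (n = 3) and +/+ (n = 3) mice. For Mobp and Mal all df/+ and dp/+ points lie below all +/+ points.

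In df/+ bulbs no myelin gene passed the threshold (0.291% of all genes), and before adjustment 2 of the 9 passed 0.05, against 10.7% of all genes. Mobp read 10.14 and 10.13 in df/+ bulbs, below all +/+ bulbs, with a difference of -0.44 ± 0.12 (SE, adjusted p = 0.138). Mal read 10.08 in both df/+ bulbs, also below all +/+ bulbs (-0.19 ± 0.10 SE, adjusted p = 0.497). Mag lay the other way, at 10.04 and 9.98 in df/+ bulbs, against 9.42, 10.10 and 9.89 in +/+ bulbs (0.20 ± 0.14 SE, adjusted p = 0.637). Mobp and Mal were the 2 genes with all df/+ bulbs below all +/+ bulbs, as for 14.6% of all genes. The df/+ and dp/+ differences share the same 3 +/+ bulbs, and Mobp lay below +/+ with 1 copy and with 3 copies. The slope on copies in the bulb was -0.18 for Mobp (adjusted p = 0.943) and passed for 0 of the 9 genes (0.246% of all genes). Slopes differed between regions for 0 of the 9 (0.0502% of all genes).

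In the cortex, cerebellum and brain stem, 0 of 9 genes passed in either mutant. Of all genes, 0.1% were called in df/+ cortex, 0.0702% in df/+ cerebellum and 0.211% in df/+ brain stem. The shares were 0% in dp/+ cortex, 5.54% in dp/+ cerebellum and 0.015% in dp/+ brain stem. Before adjustment, 2 of the 9 genes passed 0.05 in the cerebellum of df/+ mice, against 8.78% of all genes. There Mal was at 10.43 and 10.22 in df/+ mice, against 10.67, 10.68 and 10.46 in +/+ mice, a difference of -0.28 ± 0.10 (SE, adjusted p = 0.411). Cnp was at 11.93 and 11.97 in df/+ mice, against 11.55, 11.77 and 11.74 in +/+ mice, a difference of 0.27 ± 0.11 (SE, adjusted p = 0.491). In the other 5 comparisons of these regions 0 of 9 did, against 3.56% of all genes in dp/+ brain stem to 28.5% in dp/+ cerebellum. All df/+ cerebella lay above all +/+ cerebella for 3 of the 9, Mbp, Mag and Cnp (8.18% of all genes), and below for Mal (19.2%). In dp/+ cerebella 1 lay above (16.1%) and 0 below (20.3%). In dp/+ cortex 2 lay above (25.9%) and 1 below (13.9%), and in df/+ cortex 1 (8.76%) and 1 (14.3%). In df/+ brain stems 0 lay above (5.87%) and 1 below (9.32%), and in dp/+ brain stems 0 (2.83%) and 0 (3.34%). For dp/+ mice, Mobp differed by -0.07 in cortex, -0.04 in cerebellum and 0.01 in brain stem. Its brain stem interval ran from -0.21 to 0.23, which excludes a difference of the size seen in the bulb. An F test of dp/+ minus +/+ across regions, added after the bulb values were seen, passed for Mobp alone of the 9 (adjusted p = 0.0258, 0.211% of all genes). It was past the threshold in 10 of 18 other settings, and was lost without any 1 mouse except +/+ mouse 3 (adjusted p 0.0578 to 0.318). The F test of df/+ minus +/+ across regions, also added then, passed for 0 of the 9 (0.0602% of all genes).

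**Figure D4:**
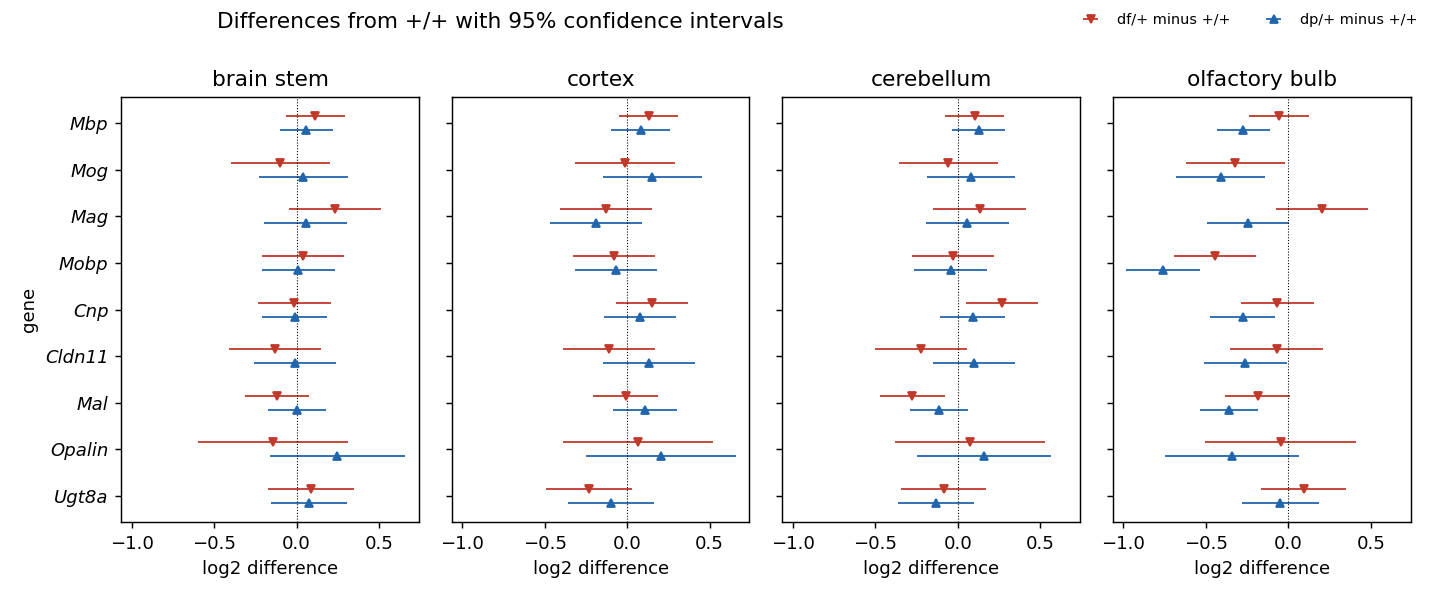
Differences of df/+ and dp/+ mice from +/+ mice (log2, horizontal axis) for each myelin gene in 4 regions, with 95% confidence intervals from limma. The dp/+ interval of Mobp in the bulb runs from -0.98 to -0.53, and all 9 dp/+ estimates in the bulb lie below 0.

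Genes of other lists called in dp/+ bulbs were all lower there. Over all genes, 1.06% were called lower and 1.21% higher, and 48.7% lay below 0. Of the 18 other myelin and oligodendrocyte genes 1 passed, Cd9, a tetraspanin also found on other cells (-0.49, adjusted p = 0.0464). Its groups overlapped, with 9.04 in dp/+ mouse 3 against 9.03 in +/+ mouse 3. By sign alone 17 of these 18 lay below 0, with a median of -0.19. Bcas1, a marker of newly formed oligodendrocytes, read 8.30, 8.21 and 7.94 in dp/+ bulbs, against 8.48, 8.84 and 8.65 in +/+ bulbs (-0.51, adjusted p = 0.0295). Its list of 10 genes was mixed by sign, with 7 below 0 and 3 above. The enzymes of myelin lipids had 10 of 15 below 0 (median -0.06), the transcription factors 11 of 13 (-0.11) and the precursor markers 2 of 9 (0.07), with 0 called in each.

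Some markers of other cells also differed in dp/+ bulbs, and their part in the myelin differences was not tested. The shares over all genes were 2.27% called and 48.7% below 0. Of 10 microglial genes 9 lay below 0 and 1 was called, C1qb, a complement subunit, between 9.93 and 10.05 in dp/+ bulbs, against 10.95, 10.64 and 10.36 in +/+ bulbs (-0.66, adjusted p = 0.00625). The mean level of the 10 ran from 8.445 to 8.584 in dp/+ bulbs and from 8.624 to 8.786 in +/+ bulbs. All 4 neurofilament genes lay below 0, and Nefm (-0.44, adjusted p = 0.0405) and Nefl (-0.27, adjusted p = 0.0448) were called. Their mean ran from 9.956 to 10.03 in dp/+ bulbs and from 10.17 to 10.33 in +/+ bulbs. The 14 genes of the axon side of the sheath went mostly the other way, with 4 below 0 and 10 above. The 7 genes of peripheral myelin had 4 below 0 and 3 above. Of 12 neuronal genes 6 lay below 0, and Stmn2, a growth-associated tubulin regulator, was called (-0.31, adjusted p = 0.0416). Of 7 endothelial genes 1 lay below 0, of 10 astrocyte genes 7 and of 6 genes listed for ensheathing glia 3, with 0 called in each list. The mean level of the astrocyte genes ran from 10.75 to 10.89 in dp/+ bulbs and from 10.82 to 10.85 in +/+ bulbs. Under 18 other settings C1qb remained past the threshold in 16, Bcas1 in 13, Nefm in 12, Cd9 and Stmn2 in 6 each and Nefl in 3.

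**Figure D5:**
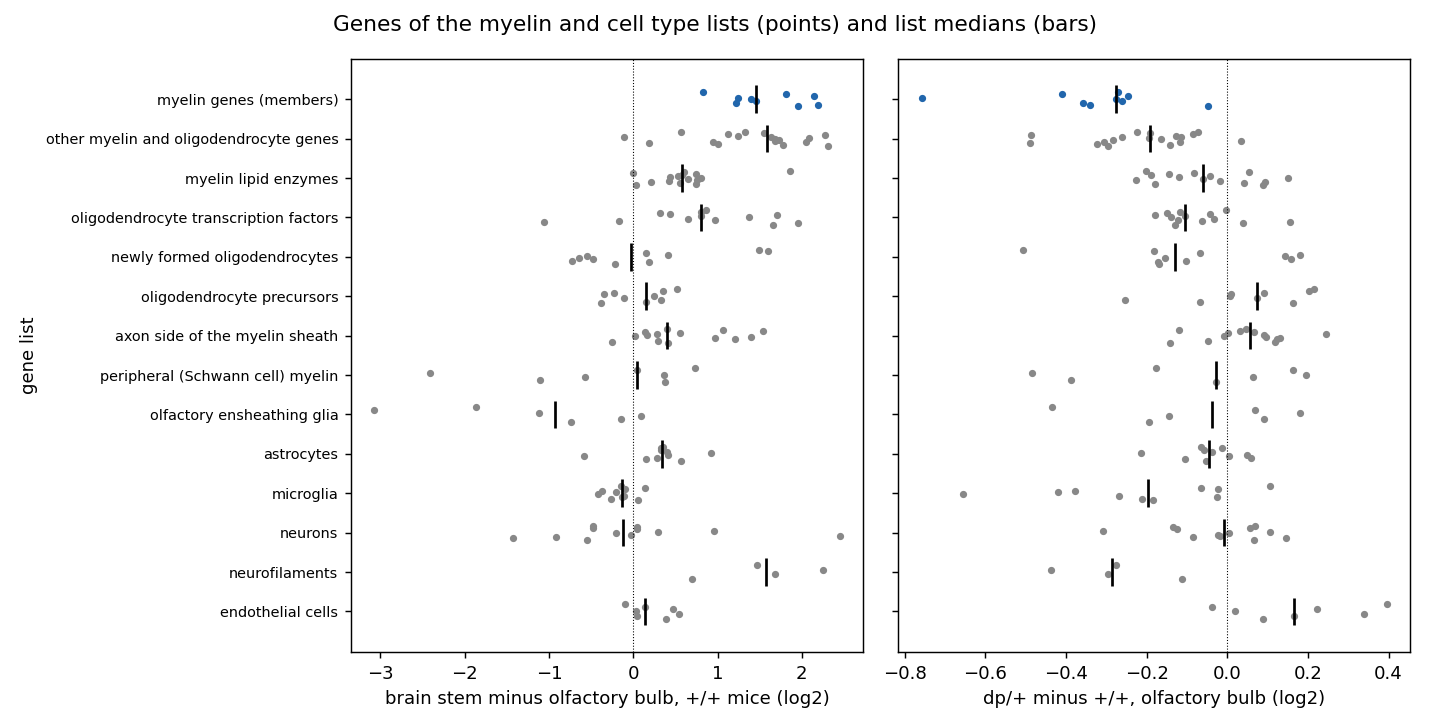
Brain stem minus bulb in +/+ mice (left) and dp/+ minus +/+ in the bulb (right), both log2, for the genes of each list (1 point per gene, vertical offsets only separate points) with list medians as bars. The median of the 9 myelin genes is 1.45 on the left and -0.28 on the right.

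The genes whose pattern over the 31 samples was most like the mean of the 9 were named by Pearson r, as a description over points that share regions, mice and arrays. They were Gpr37 and Bcas1 (0.979 each), Ankub1, Ermn, Galnt6, Cyp2j12, Fa2h, Prrg1, Eif5a2 and Csrp1 (0.972). Each member followed the mean of the other 8 with an r of 0.931 (Opalin) to 0.989 (Mog). With the mean of its region and genotype subtracted from each sample, r between a member and the mean of the other 8 was 0.426 for Mag and 0.748 for Opalin, the lowest and highest. On these deviations the most alike genes were Lyrm9 (0.911), Cd151, Bloc1s5, Aco1, Syt12, Txnrd3, Aldh9a1, Yars, Nxn and Pxdc1 (0.835). None of these genes is on the lists, and each had a higher r than any member. They were picked as the highest over all genes. Deviations within groups were thus not shared by the 9 genes alone. No test was made of these values.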

How the data were processed

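Per the submitters' processing notes, the authors used RMA in Affymetrix Expression Console (versions not given in the sources used here). Per the labels' protocols, RNA was extracted with Trizol and labelled with a whole-transcript kit. The deposited table holds log2 RMA values for 35556 probe sets on 37 arrays; base 2 was read from their range, 3.2894 to 14.536. No genome build is named. Of the probe sets, 21789 had 1 gene symbol in the platform table, 1621 several and 12146 none, which gave 19938 genes (highest-mean probe set each). Gene identifiers matched the reference table GRCm38.p6 for 21698 probe sets and not for 91.

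Samples hybridised on 2 arrays (6 per the labels, 5 per the design text) were averaged. The bulb of +/+ mouse 3 is a second technical array alone. No batch or date is given, so none was tested. Precision is limited by the number of mice, 2 or 3 in a group.

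Models were fitted with limma 3.58.1 (R 4.3.3), and gave F tests and contrasts between regions within each genotype (mouse as fixed block). Across the brain, each mouse had 1 value per gene, the mean over its regions of its deviation from the +/+ mean. Within regions, slopes and contrasts had the mouse as random block (consensus correlation 0.15 and 0.12). Adjustment was by Benjamini-Hochberg over 19938 genes; calls needed an adjusted p below 0.05.

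The members, lists and tests were chosen with earlier results of these data known. Genes named are the 9 members, the 10 most alike by each measure, and from each list the 4 with the smallest p between regions and those past the threshold between genotypes (where none was, the 2 with the smallest p of the slope across the brain). F tests of the df/+ and dp/+ differences across regions were added after the bulb values were seen. Alternatives were 1 array per sample, all probe sets, brighter genes, 3 scalings, another prior, array weights, other blocks, single regions, and each mouse left out.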

Additional observations from a re-analysis of the deposited data

Results flagged for a closer look

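The dp/+ difference of Mobp was not the same in the 4 regions. An F test of dp/+ minus +/+ across regions, added after the bulb values were seen, gave an adjusted p of 0.0258 (limma; 42 of 19938 genes, or 0.211%, passed). Under 18 other settings the adjusted p lay between 0.00435 and 0.318 and stayed past the threshold in 10. It was lost without dp/+ mouse 1 (0.0667), dp/+ mouse 2 (0.179), dp/+ mouse 3 (0.0611), +/+ mouse 1 (0.318) or +/+ mouse 2 (0.231), without either df/+ mouse (0.0578 each) and with the mouse left out of the model (0.0732).

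For 3 further genes, every dp/+ sample lay below every +/+ sample in the bulb and above every +/+ sample in another region. Mbp stood at -0.272 in the bulb and 0.129 in the cerebellum (dp/+ minus +/+). Cldn11 stood at -0.26 in the bulb and 0.134 in the cortex, and Mal at -0.358 in the bulb and 0.109 in the cortex. The cortex holds 2 dp/+ mice. In the F test across regions these genes did not pass (adjusted p = 0.146 for Mbp, 0.419 for Cldn11 and 0.153 for Mal). In the cortex the lowest dp/+ value lay above the highest +/+ value by 0.0004 for Mal and 0.0048 for Cldn11, less than the median difference of the 9 genes between 2 arrays of a cortex sample (0.0248 and 0.0913 in 2 samples). The gap of Mbp in the cerebellum was 0.0205. Of all genes, 8.82% had every dp/+ sample below every +/+ sample in the bulb, 1.16% had this with the opposite in the cortex, and 0.507% with the opposite in the cerebellum.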

How the results depend on the processing

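Each choice was changed alone. Of the alternative counts of myelin genes, 388 stayed within 1.5 times the reported one and 13 did not; those 13 follow. Between cerebellum and cortex in +/+ mice (1 gene), 2 were called among brighter genes, 3 after quantile normalisation within regions, 4 with array weights and 2 with a trended robust prior. With array weights 1 gene had a slope across the brain and 1 differed in df/+ bulbs, in place of 0. In dp/+ bulbs (2 genes) the count was 0 with the region fitted alone and 1 to 3 with a mouse left out; in df/+ bulbs (0 genes) it was 0 to 1 with a mouse left out, the 1 without +/+ mouse 3. For slopes that differ between regions (0 genes), the F test of dp/+ minus +/+ gave 1. The difference of Ugt8a in dp/+ bulbs changed sign to 0.00075 after quantile normalisation within regions and to 0.017 without +/+ mouse 2 (-0.11 to 0.017 with each mouse left out). Mobp in dp/+ bulbs was past the threshold in 17 of 18 settings (adjusted p 0.000127 to 0.0812) and Mal in 13 of 18 (0.0155 to 0.182). Not every setting can move these estimates. Each member has 1 probe set, and keeping brighter genes alters only the prior and the adjustment. The biological replicate number did not pair the mice (correlations of same-numbered mice -0.382 to 0.173). With it as a replicate block, 2 genes were called in dp/+ bulbs, and the adjusted p was 0.00075 for Mobp and 0.0355 for Mal. Counts over all genes moved by more than 1.5 times in the genotype comparisons. Across the brain, 371 genes in dp/+ mice became 20 among brighter genes, 31 with the replicate block, 49 with cyclic loess, 53 with quantile normalisation within regions, 77 with a trended prior, 935 with centred arrays, 2222 with array weights and 11 to 754 with a mouse left out. In dp/+ bulbs 452 became 183 among brighter genes and 56 to 518 with a mouse left out, and in the dp/+ cerebellum 1105 became 6 to 3977 over all settings. The causes were not tested. Without 1 df/+ mouse the regional test in df/+ mice could not be fitted, and elsewhere the spread of the lone df/+ mouse is taken from the other groups.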

Other observations

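Among the listed genes that are not myelin genes of the central nervous system, Mlip, a muscle lamin-interacting protein listed with peripheral myelin, was lower in the brain stem of df/+ mice (-1.35, adjusted p = 0.000142) and of dp/+ mice (-0.92, adjusted p = 0.0333), and across the brain in dp/+ mice (-0.45, adjusted p = 0.0268). In the brain stem it ran from 7.459 to 7.571 in df/+ mice, from 7.679 to 8.154 in dp/+ mice and from 8.224 to 9.411 in +/+ mice, a wide spread in +/+ mice (SD 0.6). Both mutants were compared with the same 3 +/+ mice. Fabp7, a lipid carrier of radial glia, astrocytes and ensheathing glia, was higher in dp/+ mice across the brain (0.31, adjusted p = 0.0448) and in the cerebellum (0.47, adjusted p = 0.0227). Slc17a7, a glutamate transporter of neurons, was lower in the brain stem of df/+ mice (-0.77, limma, adjusted p = 0.0214). It read 10.41 and 10.50 in df/+ mice against 10.90 to 11.64 in +/+ mice (SD 0.378). Mlip and Slc17a7 were both higher in +/+ cortex (10.44 and 12.66) and +/+ bulbs (9.974 and 12.15) than in +/+ brain stems (8.868 and 11.23). In +/+ cerebellum Mlip was lower (6.644) and Slc17a7 higher (12.03) than in +/+ brain stems. The part of these regional levels in their brain stem differences was not tested.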
